A study of Mus musculus with 20 samples.

Results

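The genes described here were 7 oncofetal genes of 3 families, Lin28a and Lin28b, Hmga1 and Hmga2, and Igf2bp1, Igf2bp2 and Igf2bp3, chosen by name from the 43280 genes counted in every RNA-seq library; all 7 had a row in each file. RNA-seq was performed on GFP-positive mesenchymal cells sorted from the stomach (St) and intestine (Int) of mouse embryos at E13.5, labelled C57BL/6 although the study describes its mice as of mixed strain background. Control embryos carried Bapx1-Cre and the Rosa26mTmG reporter, which turns GFP on where Cre has acted, and Eed KO embryos carried in addition floxed Eed on both alleles (2 libraries for each organ and genotype). Bapx1-Cre acts in the gut mesenchyme, so that cells outside this lineage were neither labelled nor deleted. GFP-positive stromal cells were also sorted from the adult small intestine of tamoxifen-treated mice with Pdgfrb-CreERT2 and Rosa26mTmG, without (control) or with (Eed KO) floxed Eed on both alleles (2 libraries each); villi had been scraped off and epithelium removed before sorting. Cre was driven by Pdgfrb, so that the adult cells are another population than the embryonic ones. ATAC-seq, which maps accessible DNA, was performed on the 4 E13.5 cell groups, with replicates pooled before peaks were called. Both organs were dissected from each embryo, but neither the embryos behind a library nor those shared between libraries were stated, so p-values measure the spread between these libraries.

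EED is a core subunit of Polycomb repressive complex 2 (PRC2), which places the repressive mark H3K27me3 on histone H3. LIN28 proteins bind the precursors of let-7 microRNAs and block their maturation. Mature let-7 in turn lowers mRNAs with matching sequences in their 3′ untranslated regions (UTRs), among them Hmga2, the Igf2bp mRNAs and Lin28b itself. HMGA proteins are small chromatin proteins that bind AT-rich DNA, and IGF2BP proteins bind mRNAs and affect their stability, transport and translation. These genes are typically abundant in embryonic tissues, low in adult ones, and expressed again in many tumours, hence the term oncofetal.

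The letters through which let-7 recognises an mRNA are its seed, bases 2 to 8, and they are shown because they define the family that LIN28 regulates. Of 12 mature sequences of the let-7 family, miR-98 and miR-202-3p in RefSeq (GRCm38.p6), 10 shared the seed GAGGUAG, and let-7j and miR-202-3p carried GAGGUAU instead. The seed is in capitals in these examples.
let-7a-5p: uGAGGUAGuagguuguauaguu
let-7g-5p: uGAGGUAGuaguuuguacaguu
miR-98-5p: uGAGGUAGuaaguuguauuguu
let-7j: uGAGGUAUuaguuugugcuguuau

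All 7 genes held at least 1 perfect match to the common seed (CTACCTC on the mRNA strand, the 7mer) in their longest annotated 3′ UTR (GENCODE vM21, the same build as the deposited files), and all but Hmga1 held the longer 8mer CTACCTCA, which contains the 7mer. Of 21005 genes with a 3′ UTR, 9.02% held the 7mer and 3.06% the 8mer, but most of these UTRs are shorter (median 961 bases) than those of the 7 genes. Hmga2 held 4 7mer matches, 1 of them an 8mer, in 3014 bases; of 2437 genes with a 3′ UTR of 0.8 to 1.25 times this length, 0.123% held as many. Lin28b also held 4 matches in 4445 bases, a number reached by 0.295% of 1357 genes of like length. Igf2bp1 held 4 matches in 6337 bases, 3 of them 8mers, against 0.331% of 604 genes of like length with as many. Hmga2, Lin28b and Igf2bp1 thus held the most matches of the 7 genes. Lin28a held 2 8mers in 2775 bases, a number of 7mers reached by 2.02% of genes of like length. Igf2bp2 and Igf2bp3 held 1 8mer each, in 1784 and 2119 bases, and Hmga1 held a lone 7mer in 1183 bases; 12.1%, 13.3% and 8.24% of genes of like length held at least as many. A match describes these letters only, and let-7 itself was not measured in these libraries. A match of each gene is printed with its flanks on the mRNA strand, the 8mer (for Hmga1 the 7mer) in capitals, because these matches are what the 7 genes share apart from their name.
Lin28a, chr4:134005178-134005207, minus strand: agcctgttgaaCTACCTCAtttttgccgat
Lin28b, chr10:45381011-45381040, minus strand: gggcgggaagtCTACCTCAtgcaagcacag
Hmga1, chr17:27563281-27563310, plus strand: ctgttcacaaaCTACCTCtggacggttgtg
Hmga2, chr10:120364213-120364242, minus strand: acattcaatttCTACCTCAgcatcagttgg
Igf2bp1, chr11:95961767-95961796, minus strand: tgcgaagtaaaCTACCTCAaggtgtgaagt
Igf2bp2, chr16:22059462-22059491, minus strand: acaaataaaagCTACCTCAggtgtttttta
Igf2bp3, chr6:49086776-49086805, minus strand: tttttactcaaCTACCTCAggtattcagta

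The 8 embryonic libraries held 30236159 to 39606157 counts on genes, and the 4 adult libraries 11404712 to 15903642, so that 3 counts correspond to 0.0757 to 0.0992 CPM (counts scaled to library size) in embryonic and 0.189 to 0.263 CPM in adult libraries. Eed itself fell in Eed KO intestine from 38.1 and 40.1 CPM to 10.7 and 8.59 CPM, and in Eed KO stomach from 40.1 and 41.5 CPM to 11.5 and 7.40 CPM (log2 fold changes −2.02 and −2.11, adjusted p = 0.00464 and 0.00175). In adult libraries Eed stood at 29.7 and 33.4 CPM in controls and 25.7 and 25.0 CPM in those labelled Eed KO (log2 fold change −0.32, SE 0.21, adjusted p = 0.317 by edgeR). In TPM it stood at 36.5 ± 2.30 in controls and 19.9 ± 1.86 in those labelled Eed KO (SD, n = 2), without overlap on either scale, but the fitted difference did not pass the test. Adult directions below are those of the libraries labelled Eed KO. All 8 mesenchymal markers were detected in every group. Among markers of other cells, the 5 leukocyte markers summed to 0.493 to 2.95 CPM in embryonic libraries, 192 to 250 CPM in adult controls, and 5332 to 5393 CPM in the adult libraries labelled Eed KO. In the embryo, both Eed KO replicates 1 had high Ddx3y (119 and 132 CPM) and Xist of at most 0.0792 CPM, and both Eed KO replicates 2 the opposite pattern. Embryonic control libraries had both transcripts, so the makeup by sex differed between the embryonic Eed KO replicates. Synthetic spike-in RNA made up 0.0134% to 0.110% of embryonic counts and was lower in Eed KO libraries; scaling by its totals moved the median of all genes by 0.30 (control intestine against control stomach), 1.85 (Eed KO intestine against control) and 2.39 (Eed KO stomach against control) on the log2 scale. Embryonic directions below are therefore relative to the bulk of genes.

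**Figure D1:**
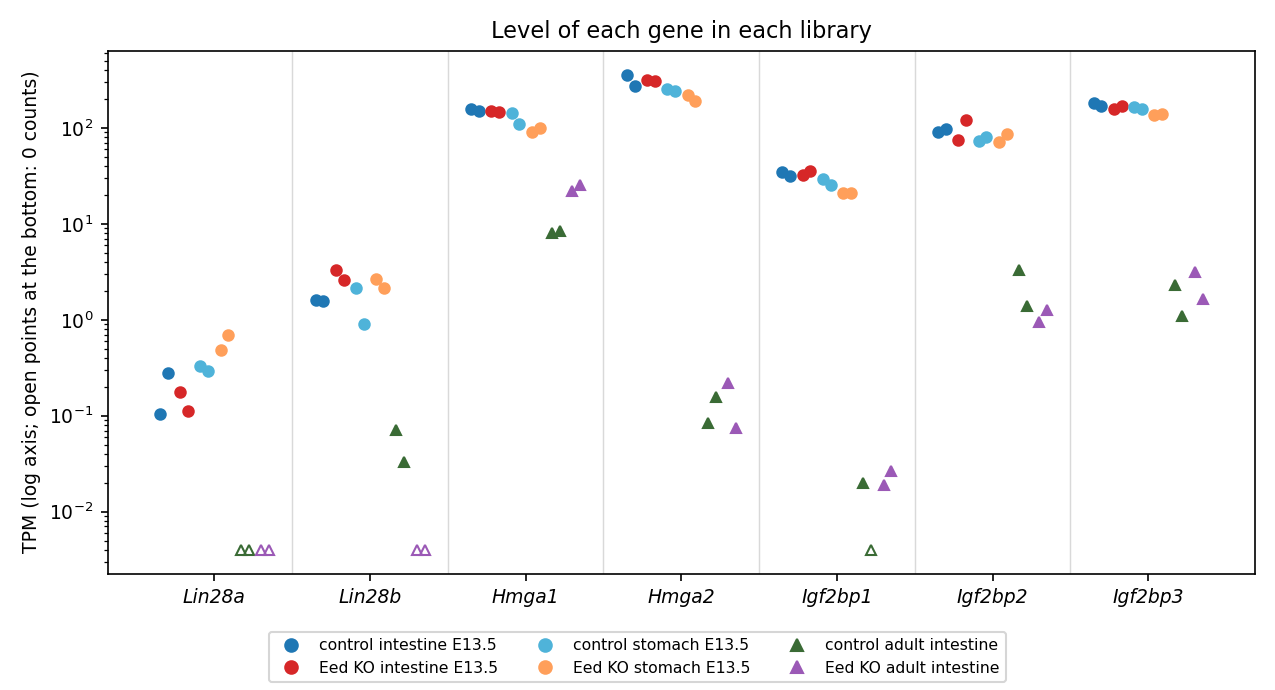
Level of each of the 7 genes in each of 12 libraries, in TPM (a length-corrected share of the library, log axis); circles are E13.5 libraries and triangles adult libraries, and open points at the bottom are libraries with 0 counts. The 5 Hmga and Igf2bp genes stand at 21.1 to 362 TPM in all embryonic libraries, Lin28b at 0.901 to 3.28 TPM and Lin28a at 0.104 to 0.696 TPM, and every gene is lower in every adult library than in any embryonic one.

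Levels between genes were compared in TPM, which divides counts by gene length, here the merged exons of each gene. E13.5 gut mesenchyme expressed Hmga2 most, followed by Igf2bp3, Hmga1, Igf2bp2, Igf2bp1, Lin28b and Lin28a. This order was the same in all 8 embryonic libraries, and in none of the 4 groups did neighbours in it overlap between replicates. In control intestine Hmga2 reached 319 ± 61.1 TPM (SD, n = 2), a higher level than 96.5% of the 12961 genes with a mean of at least 1 CPM there. Igf2bp3 reached 175 ± 10.1 TPM, Hmga1 154 ± 5.20, Igf2bp2 93.4 ± 4.79 and Igf2bp1 33.0 ± 2.31 TPM. Lin28b reached 1.58 ± 0.0153 TPM, above 5.59% of expressed genes, and Lin28a 0.193 ± 0.126 TPM, above 0.0231%. The Hmga and Igf2bp mRNAs were thus far more abundant than both Lin28 mRNAs, with a gap of 20.8-fold between Igf2bp1 and Lin28b.

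Lin28a, the paralog best known from pluripotent and germ cells, was close to the limit of detection. Its raw counts were 5 and 11 in control intestine, 15 and 15 in control stomach, 9 and 5 in Eed KO intestine, and 23 and 31 in Eed KO stomach. The Eed KO stomach libraries were the highest and did not overlap with control stomach, but the difference did not pass the test (log2 fold change 0.84, SE 0.46, adjusted p = 0.33), and Eed KO intestine overlapped with its control (−0.37, SE 0.58, adjusted p = 0.90). Of 6 germ cell markers, 3 or 4 had any count in each embryonic group, with sums of 1.60 to 3.80 CPM in every embryonic library; their part in these few counts was not tested.

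Lin28b, the paralog with the broader tissue range, had values of 2.92 and 2.79 CPM in control intestine and of 5.99 and 4.56 CPM in Eed KO intestine. The groups did not overlap, and the fitted difference was 0.88 (log2, SE 0.38, 95% interval 0.01 to 1.76), but it did not pass the threshold over all genes (adjusted p = 0.353). In stomach the controls stood at 3.83 and 1.61 CPM and the Eed KO libraries at 4.53 and 3.57 CPM. These groups overlapped (log2 fold change 0.58, SE 0.38, adjusted p = 0.412), and control stomach was the most variable group for this gene. Between control organs the difference was 0.08 (95% interval −0.82 to 0.98), an interval that holds nearly 2-fold changes in either direction.

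Hmga2, the most embryonic of the HMGA genes, was the most abundant of the 7 in every embryonic library. Control intestine stood at 831 and 613 CPM, Eed KO intestine at 719 and 679 CPM, control stomach at 573 and 547 CPM, and Eed KO stomach at 475 and 394 CPM. Eed KO intestine lay within the range of its controls, whereas both Eed KO stomach libraries lay below theirs. Hmga1, which encodes the HMGA protein also found in many proliferating adult cells, stood at 106 and 98.1 CPM in control intestine and at 101 and 94.0 CPM in Eed KO intestine. In stomach it stood at 94.8 and 72.4 CPM in controls and at 57.4 and 61.2 CPM in Eed KO libraries. Hmga2 made up 64.0% to 70.8% of the summed TPM of both genes in every embryonic library, with no separation of genotypes or organs.

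Among the genes for IGF2 mRNA-binding proteins, Igf2bp1 stood at 114 and 99.8 CPM in control intestine, 107 and 111 CPM in Eed KO intestine, 94.0 and 81.8 CPM in control stomach, and 65.3 and 62.4 CPM in Eed KO stomach. It was therefore lowest, without overlap, in Eed KO stomach. Igf2bp3 stood at 269 and 240 CPM in control intestine, 230 and 236 CPM in Eed KO intestine, 239 and 225 CPM in control stomach, and 187 and 188 CPM in Eed KO stomach. Igf2bp2, the family member that many adult tissues keep, had values of 218 and 227 CPM in control intestine and 182 and 276 CPM in Eed KO intestine, and of 173 and 191 CPM in control stomach and 164 and 188 CPM in Eed KO stomach. Genotypes overlapped in both organs for this gene, and its spread was widest in Eed KO intestine. The makeup of the family hardly varied: Igf2bp3 gave 52.0% to 61.8% of the summed TPM of the family in the 8 libraries, Igf2bp2 27.3% to 37.0%, and Igf2bp1 8.46% to 12.3%.

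**Figure D2:**
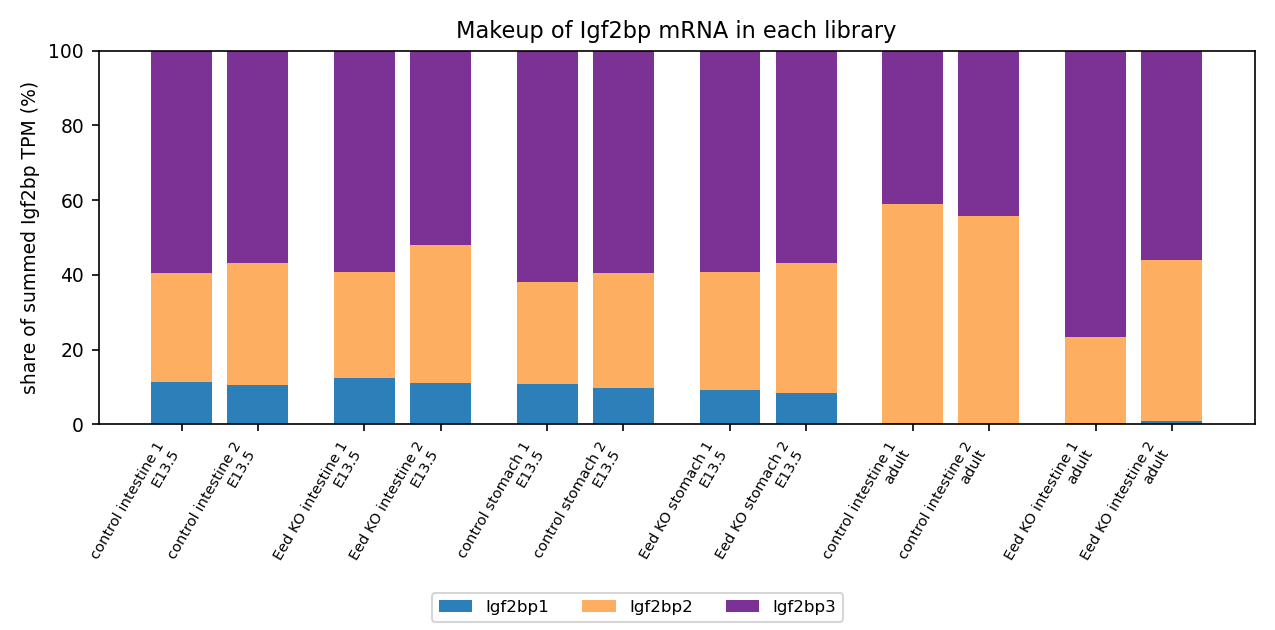
Share of each gene in the summed TPM of Igf2bp1, Igf2bp2 and Igf2bp3 (%, stacked bars), in each of the 12 libraries. Igf2bp3 is the largest share in all embryonic libraries (52.0% to 61.8%) and Igf2bp2 in both adult control libraries (58.6% and 55.8%), where Igf2bp1 is at 0.348% and 0.

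The comparison of control organs asks which genes distinguish intestinal from gastric mesenchyme before the organs take their final form. All 5 Hmga and Igf2bp genes had higher values in both intestinal than in both gastric control libraries. The share of all genes separated in this way was not determined. None of the 7 genes was called at an adjusted p below 0.05. Of 16218 tested genes, 2.40% were called higher and 4.43% lower in intestine. The fitted log2 differences were 0.37 (SE 0.16) for Hmga2, 0.29 (SE 0.14) for Hmga1, 0.28 (SE 0.11) for Igf2bp1, 0.29 (SE 0.18) for Igf2bp2 and 0.13 (SE 0.09) for Igf2bp3. On the spike-in scale they stayed positive (0.44 to 0.69), but the median of all genes was 0.30 there, and each had an adjusted p of 0.985 by edgeR. In the main fit the median of all 7 genes was 0.28, and that of all tested genes was 0.00. At an unadjusted p below 0.05, 1 of the 7 genes passed (Igf2bp1, adjusted p = 0.223), and DESeq2 also called 0. Of all 16218 tested genes DESeq2 called 542 higher and 943 lower. The share of all genes at an unadjusted p below 0.05 was not determined, here or in the comparisons below. Same-numbered organ libraries of a genotype deviated together. With the replicate number within each genotype as a block in edgeR, 3 genes were called higher in intestine: Igf2bp1 (adjusted p = 0.0159), Hmga2 (0.043) and Hmga1 (0.0456). In that fit 1100 of all 16218 tested genes were called higher. This block, named embryo pool below, assumes a pairing of libraries that the labels do not state. DESeq2 with a spike-in factor, added after the data were seen, called Igf2bp2 alone of the 7 (adjusted p = 0.0209). That fit called 692 of all 16218 tested genes higher and 992 lower.

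The comparison of Eed KO with control intestine asks which genes change when PRC2 is lost. None of the 7 genes was called, while 2.66% of 16218 genes were called higher and 0.407% lower. At an unadjusted p below 0.05, 1 of the 7 passed (Lin28b, higher in both Eed KO libraries), and DESeq2 called 0. Of all 16218 tested genes DESeq2 called 799 higher and 142 lower. For the Hmga and Igf2bp genes the fitted log2 differences lay between −0.12 (Igf2bp3) and 0.04 (Igf2bp2). Their 95% intervals were −0.41 to 0.32 for Hmga2, −0.39 to 0.25 for Hmga1 and −0.22 to 0.28 for Igf2bp1. These intervals exclude changes of 1.5-fold in either direction, relative to the bulk of genes. Both Eed KO libraries were below both controls for Igf2bp3 (−0.12, SE 0.09, adjusted p = 0.687). On the spike-in scale all values were positive and 6 of the 7 were called higher, with log2 fold changes that lay −0.12 to 0.79 from the median of all genes. On that scale 13664 of all 16218 tested genes were called higher. Of 5 endothelial markers 2 were called higher in Eed KO intestine, their sum being at most 19.96 CPM in controls and at least 46.96 CPM in Eed KO libraries; the 6 enteric neural crest markers summed to 194 to 207 CPM in controls and 96.0 to 168 CPM in Eed KO libraries, with 0 called by edgeR (2 at an unadjusted p below 0.05, 0 by DESeq2). The part of these markers in the Lin28b values was not tested.

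In stomach, 1 of the 7 genes was called in the comparison of Eed KO with control, against 5.96% of 16218 genes called higher and 1.95% called lower. DESeq2 called 1247 of all 16218 tested genes higher and 473 lower. Igf2bp1 fell from 87.9 ± 8.61 CPM to 63.8 ± 2.09 CPM (SD, n = 2; log2 fold change −0.46, SE 0.11, adjusted p = 0.0438), a change of under 2-fold, and on the spike-in scale its sign turned (1.93, against a median of 2.39 for all genes). This call was lost without any of the 4 stomach libraries (adjusted p 0.257 and 0.0966 without control replicates 1 and 2, and 0.123 and 0.22 without Eed KO replicates 1 and 2) and with a spike-in factor as covariate (0.0536). Hmga1 had a log2 fold change of −0.50 (SE 0.14, adjusted p = 0.0732; 0.0332 by DESeq2), Igf2bp3 of −0.31 (SE 0.09, adjusted p = 0.092) and Hmga2 of −0.37 (SE 0.16, adjusted p = 0.224). These 4 genes were lower in both Eed KO libraries than in both controls, a direction that turns on the spike-in scale. The share of all genes lower in this way was not determined. Igf2bp2 did not differ detectably (−0.05, 95% interval −0.48 to 0.38). The 6 proliferation markers summed to 1130 to 1270 CPM in control and to 895 to 1073 CPM in Eed KO stomach libraries, with 2 of the 6 called lower. The 5 endothelial markers summed to 14.9 to 15.3 CPM in control and to 24.6 to 45.0 CPM in Eed KO stomach libraries, with 3 called higher, and 2 of 8 mesenchymal markers were called lower. The 6 smooth muscle markers summed to 2853 to 2970 CPM in control and to 1820 to 2059 CPM in Eed KO stomach libraries, although edgeR called 0 of them (4 at an unadjusted p below 0.05, 1 by DESeq2), and the 3 mesothelial markers to 363 to 371 and 244 to 307 CPM, with 1 called lower. The part of these markers in the differences was not tested. In bulk samples, fewer cells of a type and less RNA per cell cannot be told apart.

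**Figure D3:**
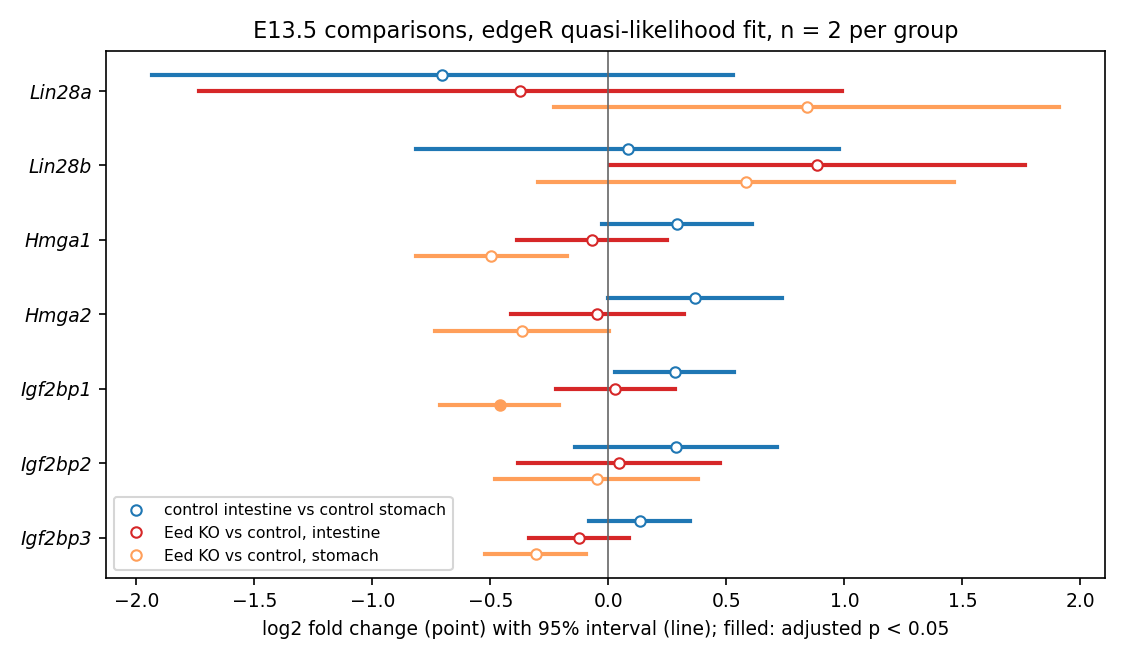
Log2 fold changes (points) with 95% intervals (lines) of the 7 genes in 3 comparisons at E13.5, from edgeR with trimmed-mean scaling; filled points have an adjusted p below 0.05. Igf2bp1 in stomach (−0.46) is the filled point, the 4 genes Hmga1, Hmga2, Igf2bp1 and Igf2bp3 lie to the right of 0 between control organs and to the left of 0 in Eed KO stomach, and on the spike-in scale all values of Eed KO stomach lie above 0 (1.93 to 3.28).

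The interaction of genotype and organ asks whether loss of Eed had a different effect in stomach than in intestine. None of the 7 genes was called at the study's looser threshold (adjusted p below 0.2), at which 0.302% of genes were called positive and 0.210% negative. The largest deviation among the abundant genes was that of Igf2bp1, whose effect in stomach was 0.49 lower than that in intestine on the log2 scale (SE 0.15, adjusted p = 0.556); it was also the only 1 of the 7 with an unadjusted p below 0.05, and DESeq2 called 0. Of all 16218 tested genes DESeq2 called 139 positive and 128 negative. For Hmga1 the difference was −0.43 (SE 0.19, adjusted p = 0.887 by edgeR). On the spike-in scale both differences were positive (0.04 and 0.18), below the median of 0.53 over all genes. With a replicate block by embryo pool the fitted differences were nearly the same (−0.49 and −0.42), but both were called (adjusted p = 0.0332 for Igf2bp1 and 0.16 for Hmga1). In that fit 471 of all 16218 tested genes were called negative and 545 positive. Whether the effects differed between organs thus depended on the pairing of libraries, which the labels do not state.

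Over the 8 embryonic libraries, log2 CPM of Hmga1, Hmga2, Igf2bp1 and Igf2bp3 ran in parallel, with Pearson's r from 0.89 (Hmga1 with Hmga2) to 0.97 (Hmga1 with Igf2bp1). These points share organs, genotypes and sequencing depth, and the values are descriptive. Igf2bp2 followed the others less closely (r from 0.48 to 0.60), and Lin28b did not (r from −0.20 to 0.11). Lin28a ran opposite to the Hmga and Igf2bp genes (r from −0.67 to −0.95), at only 5 to 31 counts a library. Among 13385 other genes with a mean of at least 1 CPM, the patterns most like that of Hmga2 were those of Ppp1r2 (r = 0.997), Cfl2 (0.99) and Ate1 (0.99). For Hmga1 they were those of 5033428I22Rik (0.99), Mvk (0.99) and Mif (0.98). Mif was also the gene most like Igf2bp1 (0.99), followed by Smoc1 (0.99) and Angptl6 (0.99). For Igf2bp3 they were Rnps1 (0.996), Ctps (0.99) and Ctbp2 (0.99), for Igf2bp2 Zyx (0.99), Yars (0.98) and Mrvi1 (0.98), and for Lin28b Ccdc158 (0.97), Scn2b (0.95) and Gm12454 (0.95). Mif was the only gene named for more than 1 of the 6.

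Other genes around the Lin28 and let-7 pathway were taken from 3 lists. Of 17 genes that process let-7 or act with LIN28, edgeR called 0 between control organs and 0 in Eed KO intestine; 2 had an unadjusted p below 0.05 in each of these comparisons, and DESeq2 called 1 between organs and 0 in Eed KO intestine. In Eed KO stomach 1 was called, the Argonaute gene Ago4 (log2 fold change 0.94, SE 0.17, adjusted p = 0.0175). Ago4, Rrm2 and Dlk1 changed by less than 1 on the log2 scale and are named after their values were seen, because the calls were few. Of 32 other let-7 target mRNAs, edgeR called 0 between control organs (7 at an unadjusted p below 0.05, 5 by DESeq2), and 2 rose in Eed KO intestine and 2 rose and 1 fell in Eed KO stomach. Of all tested genes, edgeR called 2.66% higher and 0.407% lower in Eed KO intestine, and 5.96% and 1.95% in Eed KO stomach. DESeq2 called 1485 of 16218 genes between control organs, 941 in Eed KO intestine and 1720 in Eed KO stomach. Nr6a1, which encodes an orphan nuclear receptor of early embryos, rose from 1.43 and 1.38 CPM to 4.64 and 4.51 CPM in intestine (log2 fold change 1.70, SE 0.26, adjusted p = 0.0179) and from 1.56 and 2.01 CPM to 7.19 and 4.83 CPM in stomach (1.74, SE 0.25, adjusted p = 0.00764). The same direction was seen for Ccnd1, which encodes cyclin D1 and drives entry into the cell cycle, with log2 fold changes of 1.69 in intestine (SE 0.23, adjusted p = 0.0118) and 1.01 in stomach (SE 0.22, adjusted p = 0.0369). Rrm2, which encodes a subunit of ribonucleotide reductase, fell in stomach (−0.48, SE 0.09, adjusted p = 0.0192). The medians of this list were 0.07 in intestine and −0.06 in stomach, beside 0.01 and 0.00 for all genes. Of 15 other fetal growth and oncofetal genes, Sall4, a zinc finger gene of stem cells, was higher in control intestine (5.82 and 5.28 CPM) than in control stomach (1.36 and 1.10 CPM; log2 difference 2.18, SE 0.21, adjusted p = 0.00126). In Eed KO intestine edgeR called 0 of these genes (4 at an unadjusted p below 0.05, 1 by DESeq2). Dlk1, an imprinted fetal gene, rose in Eed KO stomach (0.78, SE 0.14, adjusted p = 0.0176).

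All 7 genes had an ATAC-seq peak within 1000 bp of their annotated start in all 4 lists, that is in 28 of 28 cases; the same held for 87.8% to 88.9% of 16217 tested genes in each list. The peaks spanned the start of 6 of the genes, whereas the strongest peak of Lin28a began 301 to 415 bp downstream of its start, within the gene. Fold enrichment over background, as the peak caller gave it for each pooled list, was highest at Igf2bp2 among the abundant genes (4.61 in control intestine, 4.28 in Eed KO intestine, 4.67 in control stomach and 4.42 in Eed KO stomach) and lowest at Igf2bp3 (from 2.42 in Eed KO intestine to 2.64 in control stomach). By enrichment, the order thus did not follow that of the RNA, since Igf2bp3 mRNA was the more abundant of both in every embryonic library. Lin28a and Lin28b, with the least RNA, had enrichments of 3.56 to 4.81 and 3.45 to 4.03. By the significance of the peaks the picture differed. The −log10 q was 5.96 to 11.2 at Lin28a and Lin28b and 13.4 to 33.7 at the Hmga and Igf2bp genes. On that measure both Lin28 genes had the weakest peaks in each list. The 7 genes all stood in the weaker part of promoter peaks: depending on gene and list, 0.645% to 21.7% of genes with such a peak had a lower enrichment. Enrichment was lower in the Eed KO than in the control list at 6 of the 7 genes in intestine (all but Hmga1, 3.34 and 3.45) and at all 7 in stomach, with ratios of 0.829 to 1.03 and 0.741 to 0.948. Over all genes with a promoter peak in both lists, 69.0% of 14175 in intestine and 54.5% of 14224 in stomach were also lower, with median ratios of 0.952 and 0.99. Lin28a had 2 promoter peaks in both Eed KO lists and 1 in both control lists, but each of its Eed KO peaks overlapped a control peak of the same organ. Peaks were called on pooled replicates, so that these differences have no replicate check.

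**Figure D4:**
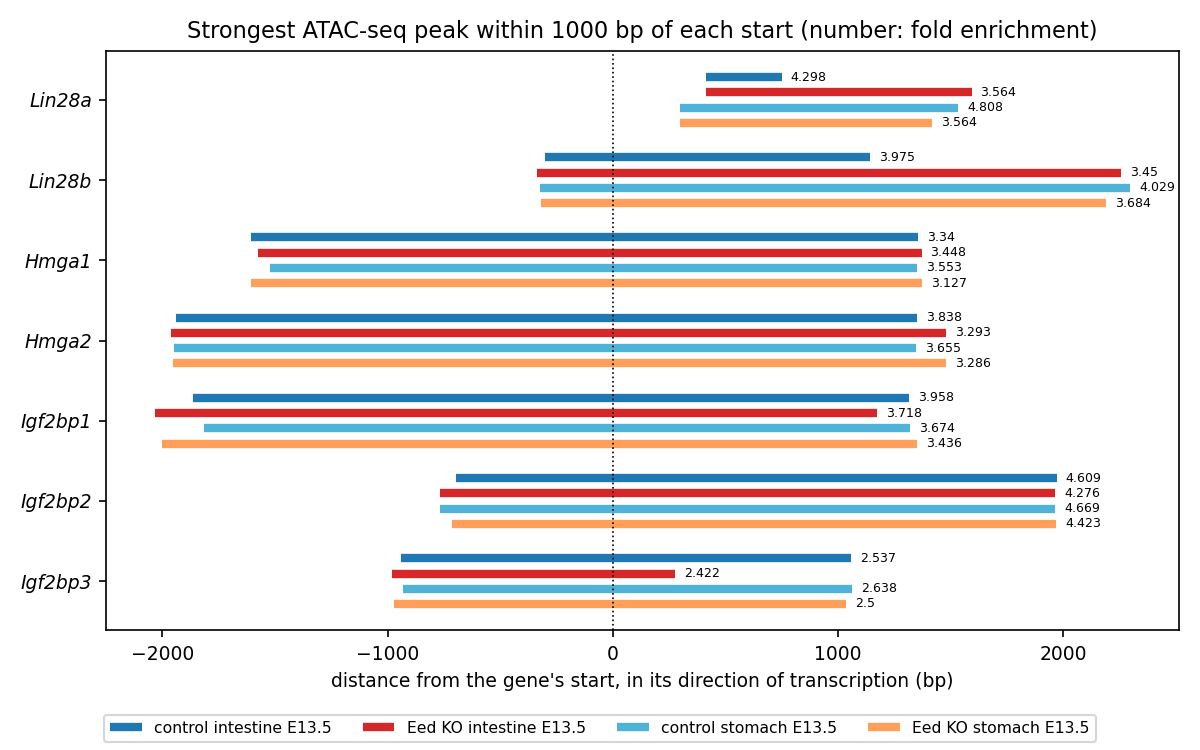
Position of the strongest ATAC-seq peak within 1000 bp of the start of each gene (bars, in bp from the start along the direction of transcription), in 4 pooled E13.5 lists, with its fold enrichment as a number. Bars cross the start at 6 genes, those of Lin28a lie 301 bp or more downstream, and enrichments range from 2.42 (Igf2bp3, Eed KO intestine) to 4.81 (Lin28a, control stomach).

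Because these promoters were accessible in all 4 lists at very different RNA levels, their base makeup is given as well. RefSeq promoter windows, from 250 bases before to 50 after the start, were matched for 6 of the 7 genes and not for Igf2bp1. The dinucleotide CG, where promoters gather in CpG islands that PRC2 is known to prefer, was present in 94.6% of 32851 windows, with a median of 7 per window. Igf2bp2 held 47, Hmga1 40 (38 in a second entry), Igf2bp3 25, Hmga2 12, Lin28a 10 and Lin28b 8. Of all windows, 98.6% held fewer CG than that of Igf2bp2, and 51.4% held fewer than that of Lin28b. The extremes are printed, with CG in capitals, on the strand of the gene.
Igf2bp2, chr16:22163250-22163549, minus strand, GRCm38.p6: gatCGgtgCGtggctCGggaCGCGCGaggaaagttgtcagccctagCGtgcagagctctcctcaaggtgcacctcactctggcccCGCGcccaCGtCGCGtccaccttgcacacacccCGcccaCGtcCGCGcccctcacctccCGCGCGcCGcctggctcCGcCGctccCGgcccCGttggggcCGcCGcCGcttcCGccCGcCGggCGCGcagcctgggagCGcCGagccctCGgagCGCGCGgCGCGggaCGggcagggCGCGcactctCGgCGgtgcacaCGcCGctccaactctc
Lin28b, chr10:45470152-45470451, minus strand, GRCm38.p6: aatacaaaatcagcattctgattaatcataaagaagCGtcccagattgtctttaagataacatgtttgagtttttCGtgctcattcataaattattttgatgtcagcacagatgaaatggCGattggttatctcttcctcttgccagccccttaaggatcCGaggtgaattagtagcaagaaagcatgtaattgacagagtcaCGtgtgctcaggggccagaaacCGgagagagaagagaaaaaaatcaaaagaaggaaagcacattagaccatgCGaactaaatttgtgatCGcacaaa

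Within the gene bodies, extended by 1000 bp on either side, Hmga2 was dense in peaks, with 23 in control intestine, 18 in Eed KO intestine, 23 in control stomach and 15 in Eed KO stomach. This equals 19.6, 15.4, 19.6 and 12.8 peaks per 100 kb, beside medians of 6.82, 7.60, 7.37 and 7.30 over 11234 tested genes of at least 10000 bp. Of the control peaks in Hmga2, 6 in intestine and 8 in stomach had no overlapping peak in the Eed KO list. Conversely, 1 and 0 of the Eed KO peaks had none in the control list. The share of all peaks without an overlap was not determined, so these counts have no background. The length covered did not follow the number of peaks in Hmga2. Peaks covered 16.7% of the extended gene in control and 19.4% in Eed KO intestine, and 15.6% and 15.4% in stomach. Igf2bp2 held 12 peaks in control and 4 in Eed KO intestine but 6 in each stomach list, and Igf2bp3 held 16 in control and 8 in Eed KO stomach but 9 and 11 in intestine. The Eed KO lists were not smaller than the control lists (119181 against 103808 peaks in intestine and 116842 against 115789 in stomach). Lin28b, a gene of 93582 bp beside the 115195 bp of Hmga2, held 2 or 3 peaks in each list. Lin28a, a gene of 15512 bp, held 3 peaks in control and 4 in Eed KO intestine and 2 and 3 in stomach. Its covered share was higher in the Eed KO lists (21.4% against 7.59% in intestine and 19.8% against 12.1% in stomach). None of its Eed KO peaks lacked an overlapping control peak in the same organ.

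In adult intestinal stroma the 7 genes formed another pattern, and the comparison of Eed KO with control asks which genes change when Eed is lost in Pdgfrb-expressing cells. Lin28a had 0 counts in all 4 libraries, a level of at most 0.189 to 0.263 CPM at 3 counts a library. Lin28b had 2 and 1 counts in controls and none in libraries labelled Eed KO, Igf2bp1 1 and 0 against 1 and 2 counts (ratio 3.66, 95% counting interval 0.294 to 192), and Hmga2 3 and 6 against 8 and 4 counts. These 4 genes were too low to be tested, and no difference was detectable at this depth. Hmga1, Igf2bp2 and Igf2bp3 passed the filter on low counts, which does not make them representative of the 7.

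Hmga1 was higher in adult libraries labelled Eed KO than in control libraries, and it was the only call among the 3 genes tested, against 14.1% of 15039 genes called higher and 9.39% called lower. It stood at 6.15 and 6.59 CPM in controls and at 23.8 and 30.9 CPM in Eed KO libraries, without overlap. The log2 fold change was 2.1 (SE 0.27, adjusted p = 0.00239), that is 4.29-fold, and it lay between 1.65 and 2.26 under every alternative, the lowest being that on the spike-in scale, where the median of all genes was −0.42. In TPM, Hmga1 moved from 8.20 ± 0.235 to 23.7 ± 2.60 (SD, n = 2), from above 44.1% to above 73.8% of expressed genes, and still lay below every embryonic library. Leukocyte markers moved with it: all 5 found in the files (of 6 listed) were called higher, and the Ptprc gene for the pan-leukocyte antigen CD45 rose from 64.3 and 57.2 CPM to 1077 and 925 CPM. Of 6 proliferation markers 1 was called higher, and their sum was 77.7 to 90.9 CPM in controls and 159 to 237 CPM in Eed KO libraries. Of 6 tested mesenchymal markers (8 listed) 3 were called lower, and the sum of all 8 was 7448 to 7455 CPM in controls and 2387 to 3319 CPM in Eed KO libraries. Of 6 smooth muscle markers 4 were called higher, and their sum was 1820 to 2257 CPM and 3149 to 3707 CPM. The part of these cell types in the Hmga1 difference was not tested.

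Igf2bp3 stood at 3.88 and 1.89 CPM in adult controls and at 7.53 and 4.33 CPM in Eed KO libraries, without overlap, but the difference did not pass the test (log2 fold change 1.03, SE 0.55, adjusted p = 0.22). Igf2bp2 stood at 9.07 and 3.92 CPM in controls and at 3.71 and 5.49 CPM in Eed KO libraries, and its groups overlapped (−0.49, SE 0.52, adjusted p = 0.537). These values rest on 27 to 124 counts a library. Igf2bp2 gave 58.6% and 55.8% of the family's TPM in controls and 23.0% and 43.2% in Eed KO libraries, so that Igf2bp3 was the larger share in the latter.

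**Figure D5:**
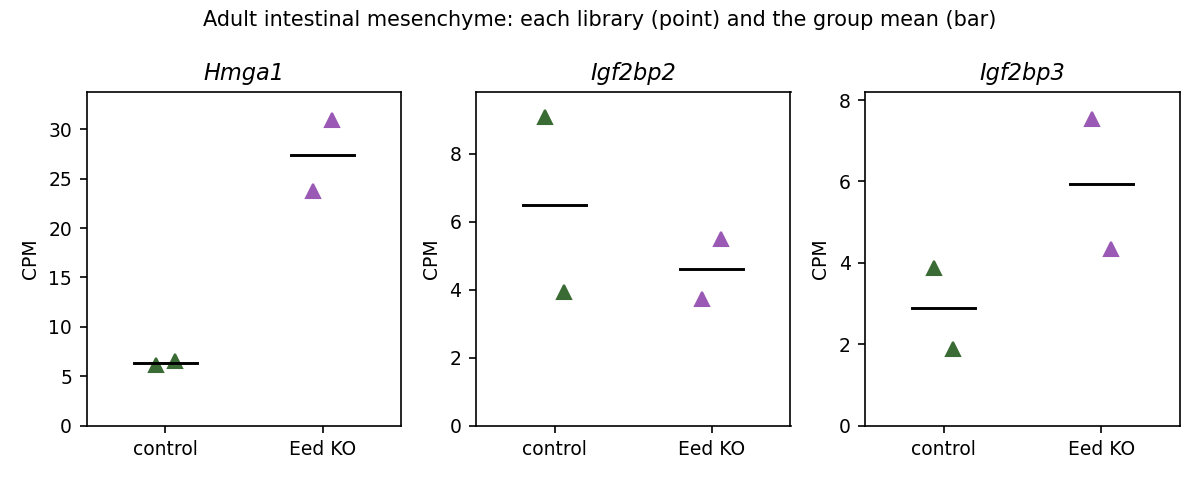
CPM of Hmga1, Igf2bp2 and Igf2bp3 in the adult libraries (triangles), control and labelled Eed KO, with group means (horizontal lines); axes start at 0. Hmga1 stands at 6.15 and 6.59 CPM in controls and 23.8 and 30.9 CPM in Eed KO libraries, whereas the groups of Igf2bp2 overlap (3.92 and 9.07 against 3.71 and 5.49 CPM).

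In the lists, edgeR called 0 of 16 tested let-7 processing genes in the adult comparison (1 at an unadjusted p below 0.05, 1 by DESeq2), and 8 of 29 tested let-7 targets were called higher and 3 lower. Of all 15039 genes tested in the adult, edgeR called 14.1% higher and 9.39% lower, and DESeq2 called 2365 genes higher and 1587 lower. The targets with the largest changes were Gatm, an enzyme of creatine synthesis (log2 fold change 3.66, SE 0.30, adjusted p = 0.000357), Thbs1, which encodes the matrix protein thrombospondin (2.22, SE 0.31, adjusted p = 0.00298), E2f6, a repressor of the E2F family (−2.16, SE 0.57, adjusted p = 0.0347), and Plagl2, a zinc finger gene (2.16, SE 0.44, adjusted p = 0.0131). They were followed by the growth regulator Myc (1.83, SE 0.28, adjusted p = 0.00421) and Irs2, an adaptor of insulin signalling (1.79, SE 0.37, adjusted p = 0.014). The median of the targets was 0.09, beside 0.00 for all genes. Of 11 tested fetal growth genes 1 was called higher and 3 lower. The imprinted genes Peg3 (−2.15, SE 0.46, adjusted p = 0.0157), Meg3 (−2.05, SE 0.27, adjusted p = 0.00252) and Grb10 (−1.26, SE 0.20, adjusted p = 0.00511) fell, and Afp, the fetal serum protein alpha-fetoprotein, went from 0 counts in both controls to 2.31 and 2.01 CPM (adjusted p = 0.00763).

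Finally, control intestinal mesenchyme at E13.5 was set beside adult control stroma. Age, Cre line, library kit and strandedness differ together here and cannot be told apart, and scaling with DESeq2 size factors moved the median of all genes from −0.025 to −0.20. All 7 genes were called higher in the embryo, against 35.9% of 19388 genes called higher and 36.9% called lower. On a scale common to all libraries, Hmga2 stood at 668 CPM in the embryo and 0.378 CPM in the adult, a ratio of 1780 with a 95% counting interval of 938 to 3894, from 47797 and 9 counts. Igf2bp1 had 7011 counts in the embryo and 1 in the adult (ratio 2350, interval 422 to 92850). These mRNAs were abundant in the embryo and close to the limit of detection in the adult. Lin28b, with 187 and 3 counts, had a ratio of 20.9 (interval 7.04 to 102). Igf2bp3 was 6.11 higher on the log2 scale (SE 0.32, adjusted p = 6.54e-08), Igf2bp2 4.75 higher (SE 0.36, adjusted p = 8.88e-07) and Hmga1 3.65 higher (SE 0.20, adjusted p = 8.61e-08). Lin28a, with 16 counts in the embryo and 0 in the adult, was at least 1.79-fold higher against a floor of 3 counts over the adult group, and its call was lost by DESeq2 (adjusted p = 0.0555) and without control intestine replicate 2 (0.07) or adult control replicate 1 (0.0726) or 2 (0.0764). In the lists, 14 of 17 let-7 processing genes were called higher and none lower, 22 of 32 let-7 targets higher and 5 lower, 13 of 15 fetal growth genes higher and none lower, and 6 of 6 proliferation markers higher.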

How the data were processed

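RNA-seq covered 12 libraries in 6 groups of 2 and ATAC-seq 4 pooled lists. The members and gene lists were chosen with earlier results of these data known. Embryonic libraries were made with a stranded poly(A) kit and adult libraries with an unstranded low-input kit; per the methods, the submitters' processing notes and the file headers, reads were trimmed (Trimmomatic 0.32), aligned to mm10 (STAR 2.5.1b) and counted by the authors with featureCounts 1.5.0 on GENCODE vM4 (the methods name a later version for adult data than the headers of those files). The deposited gene tables hold raw counts, with no normalization. For ATAC-seq, the authors aligned reads with BWA 0.7.8, pooled replicates and called broad peaks (MACS2 2.1.2); the deposited peak lists give a fold enrichment (ratio) and a −log10 q-value per peak. Gene lengths listed with the adult counts gave TPM for all libraries.

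Counts were analysed with edgeR 4.0.16 (R 4.3.3), leaving out 99 spike-in rows. Genes were filtered by filterByExpr, libraries scaled by TMM, and groups compared by quasi-likelihood F-tests with Benjamini-Hochberg adjustment over all tested genes (8 embryonic libraries in 1 fit of 16218 genes, 4 adult libraries in another of 15039, and 12 libraries of 19388 genes for the age comparison); the study normalized to spike-ins with RUV-seq and tested with DESeq2, the number of factors not being given. Calls needed an adjusted p below 0.05 (0.2 for the interaction). SE is the log2 fold change divided by the root of F. Intervals and floors from counts cover counting error only. Named genes were the 7 members, Eed, list genes past the threshold with a log2 fold change above 1 in size (up to 6 per list and comparison of genotypes or organs), and the 3 genes most correlated with each member of at least 1 CPM (log2 CPM, prior count 2). A peak belonged to a promoter when it overlapped 1000 bp around the start. Alternatives were DESeq2 1.42.0, without and (added later) with 1 spike-in factor, no low-count filter, other scalings, spike-in scaling or a spike-in factor in edgeR, replicate number as a block (for organs also by genotype, as an embryo pool), and leaving out each library. The tests were checked on simulated counts. Library depth ranged from 30236159 to 39606157 counts (embryonic) and 11404712 to 15903642 (adult).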

Additional observations from a re-analysis of the deposited data

How the results depend on the processing

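Lin28a and, in the adult, Lin28b, Hmga2 and Igf2bp1 were limited by depth. Scaling by spike-in totals turned the direction of every called or newly called value that reversed. Of 72 counts of called members under an alternative, 59 stayed within 1.5 times the reported count, the 28 promoter peaks among them at a −log10 q of at least 2 or 5 and within 5000 bp. In control intestine against control stomach, the count of 0 became 3 with a replicate block by embryo pool (1100 of 16218 genes called higher). It became 1 with DESeq2 and a spike-in factor, an alternative added after seeing the data, which called 1684 of 16218 genes. In Eed KO intestine, 0 became 6 with scaling by spike-in totals. That scaling called 13664 of 16218 genes higher in Eed KO intestine and 15419 in Eed KO stomach. In Eed KO stomach, 1 became 2 with DESeq2 and 2 with no low-count filter, 7 (all higher) with spike-in totals, 0 with a spike-in factor in edgeR, 3 with a replicate block, and 0 without control replicate 1, control replicate 2, Eed KO replicate 1 or Eed KO replicate 2 in turn. Calls over all genes in Eed KO stomach also rose. Beside 967 higher and 316 lower of 16218 genes in the main fit, DESeq2 called 1720 and the replicate block 2474. With no low-count filter 1912 of 25364 genes were called. For the interaction, 0 became 2 with a replicate block by embryo pool, which called 1016 of 16218 genes. The adult count stayed at 1, the age count at 6 or 7. On the spike-in scale the log2 fold changes that turned were, in Eed KO intestine, 1.76 (Hmga1), 1.77 (Hmga2) and 1.73 (Igf2bp3), and in Eed KO stomach 1.94 (Hmga1), 1.98 (Hmga2), 1.93 (Igf2bp1), 2.38 (Igf2bp2) and 2.09 (Igf2bp3); the medians of all genes there were 1.85 and 2.39. Of 435 fold changes of single members under an alternative, 389 stayed on their side of the threshold and kept their direction or moved by less than 1 SE. Whether same-numbered organ libraries share embryos was not stated; their deviations correlated at 0.52 between control organs and 0.89 between Eed KO organs, beside 0.09 to 0.22 between genotypes and −0.12 in the adult, where equal numbers share only a number. With the replicate block crossed in the adult, chosen after seeing the data, 1 member was called. The cause of these changes was not tested.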
